A study of Mus musculus with 4 samples.

Results

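Mitochondrial ribosomal proteins are encoded in the nucleus, made in the cytosol and imported into mitochondria. There they form the large and small subunits of the ribosome that translates the few messengers of the mitochondrial genome, all of which encode subunits of the respiratory chain and ATP synthase. The genes were taken by name, as every row of the deposited table whose symbol is Mrpl or Mrps followed by a number and at most 1 letter. The rule found 77 of the 24028 genes in the table and used no measured value. Of these genes, 50 belong to the large subunit, including Mrps18a and Mrps30, whose proteins sit in the large subunit despite their names. A further 26 belong to the small subunit. Mrps36 was kept apart, since its protein is also known as a component of the 2-oxoglutarate dehydrogenase complex.

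The 4 RNA sequencing libraries came from cells sorted out of the sciatic nerve of female mice on day 3 after nerve injury. The young mice were 3 months old and the aged mice 15 months old, with 2 libraries per age. Animals of both ages were Cx3cr1-GFP+/- and Ccr2-RFP+/-, reporters that replace 1 allele of each receptor gene, and the cells were labelled as CCR2+ Cx3cr1+ macrophages. Each library pooled several of the 7 to 8 mice per time point. No uninjured nerve was analysed here, so the levels describe injured nerve alone. The labels do not say which mice entered which pool, so the spread between libraries may be partly technical.

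The library read totals ranged from 8613360 to 11489336. The 6 macrophage markers read (Adgre1, Csf1r, Cd68, Lyz2, Fcgr1 and Mertk) summed to 8746 to 13626 FPKM (fragments scaled by gene length and by the read total of the library). The 3 monocyte markers, which include Ccr2 and Cx3cr1, summed to 419 to 578 FPKM. Fibroblast markers summed to 153 FPKM in young replicate 2 and to 32.0 to 70.6 FPKM in the other libraries. Schwann cell markers summed to 22.3 to 46.0 FPKM, endothelial markers to 8.93 to 23.8 FPKM and pericyte and smooth muscle markers to 7.86 to 17.7 FPKM. Neutrophil markers summed to 7.25 to 12.2 FPKM, while the T cell markers and the B cell markers each summed to at most 1.68 FPKM.

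The promoters of nuclear genes for mitochondrial proteins are known for binding sites of NRF1, of ETS family factors such as GABP, and of YY1. A promoter window, from 250 bases before to 50 bases after the RefSeq start site, was given for 68 of the 77 genes. The letters searched on both strands were GCGC and TGCGC parted by 1 base of any kind (NRF1), CCGGAAG (ETS) and AAGATGGC (YY1), and they do not contain each other. NRF1 letters stood in 19.1% of the genes with a window, beside 5.19% of all 27025 genes with windows. ETS letters stood in 36.8% beside 9.93%, and YY1 letters in 17.6% beside 3.19%. At least 1 of the 3 was found for 42 of the 68 genes (61.8%), beside 16.4% of all genes, so the family carried these letters more often than promoters in general. The median G and C content of the windows was 58.0% for the family and 52.8% for all genes, and its part in these shares was not tested. A match is a description of the letters and not a binding site.

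Stretches of 120 bases before the start site follow for 4 genes, to show the letters on both sides of the age comparison described below. These examples do not tie letters to a direction. Both aged libraries lay below both young ones in 7 of 13 tested members with NRF1 letters and above in 2. With ETS letters this was 10 and 1 of 24, and with YY1 letters 4 and 1 of 11, beside 26.2% and 11.8% of all genes tested. Of the 40 tested members with any of the 3, 17 (42.5%) lay below and 3 (7.5%) above. Of the 26 tested members with a window and none of them, 10 (38.5%) lay below and 3 (11.5%) above. The window of Mrps21 also holds ETS letters, and that of Mrps18a YY1 letters, outside the stretches shown. The window of Mrpl45 holds 3 NRF1 matches, of which 2 are shown. Mrps21, Mrpl12 and Mrpl45 had lower values in both aged libraries than in both young ones, and Mrps18a had higher values. Capitals mark NRF1 letters in the first 3 and ETS letters in the last, and sequences are from RefSeq on build GRCm38.p6, read 5′ to 3′ on the strand of the gene.
Mrps21, chr3:95871520-95871639, minus strand: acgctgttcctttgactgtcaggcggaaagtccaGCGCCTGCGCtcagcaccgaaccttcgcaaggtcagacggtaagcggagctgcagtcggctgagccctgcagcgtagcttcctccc
Mrpl12, chr11:120484493-120484612, plus strand: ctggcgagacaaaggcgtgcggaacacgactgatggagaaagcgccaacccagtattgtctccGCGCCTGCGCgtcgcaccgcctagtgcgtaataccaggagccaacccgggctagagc
Mrpl45, chr11:97315596-97315715, plus strand: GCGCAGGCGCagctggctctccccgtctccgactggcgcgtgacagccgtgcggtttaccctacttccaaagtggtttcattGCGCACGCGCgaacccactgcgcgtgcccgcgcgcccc
Mrps18a, chr17:46110866-46110985, plus strand: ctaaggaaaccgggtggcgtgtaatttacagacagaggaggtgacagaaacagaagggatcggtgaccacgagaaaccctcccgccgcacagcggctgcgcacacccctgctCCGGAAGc

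Transcripts of 76 of the 77 genes were detected in every library, at very unequal levels. The most abundant was Mrpl36, a small zinc-binding protein of the large subunit, at 111 and 135 FPKM in young, against 58.3 and 36.0 FPKM in aged libraries. It was followed by Mrpl24, a protein at the exit of the tunnel through which the new chain leaves, at 75.3 and 64.5 FPKM in young, against 69.8 and 49.1 FPKM in aged libraries. Mrps21 of the small subunit, Mrps30, Mrpl40 and Mrpl3 came next. These 6 genes held 37.3% of the family's summed FPKM in both young libraries, and 35.4% and 30.4% in the aged ones. Between 50 and 55 members lay below 10 FPKM in a library, and the family's median level was 6.86 and 6.89 FPKM in young, against 5.95 and 4.45 FPKM in aged libraries. Proteins that enter 1 ribosome together were thus represented by messengers that differed widely in FPKM. The RNA was amplified in a way that can copy transcripts unevenly, and its part in these differences was not tested. The values of Mrpl24 are uncertain in part, since 26.3% of its exon bases overlap the opposite-strand gene Rrnad1 and no source used here states whether counting used strand.

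**Figure D1:**
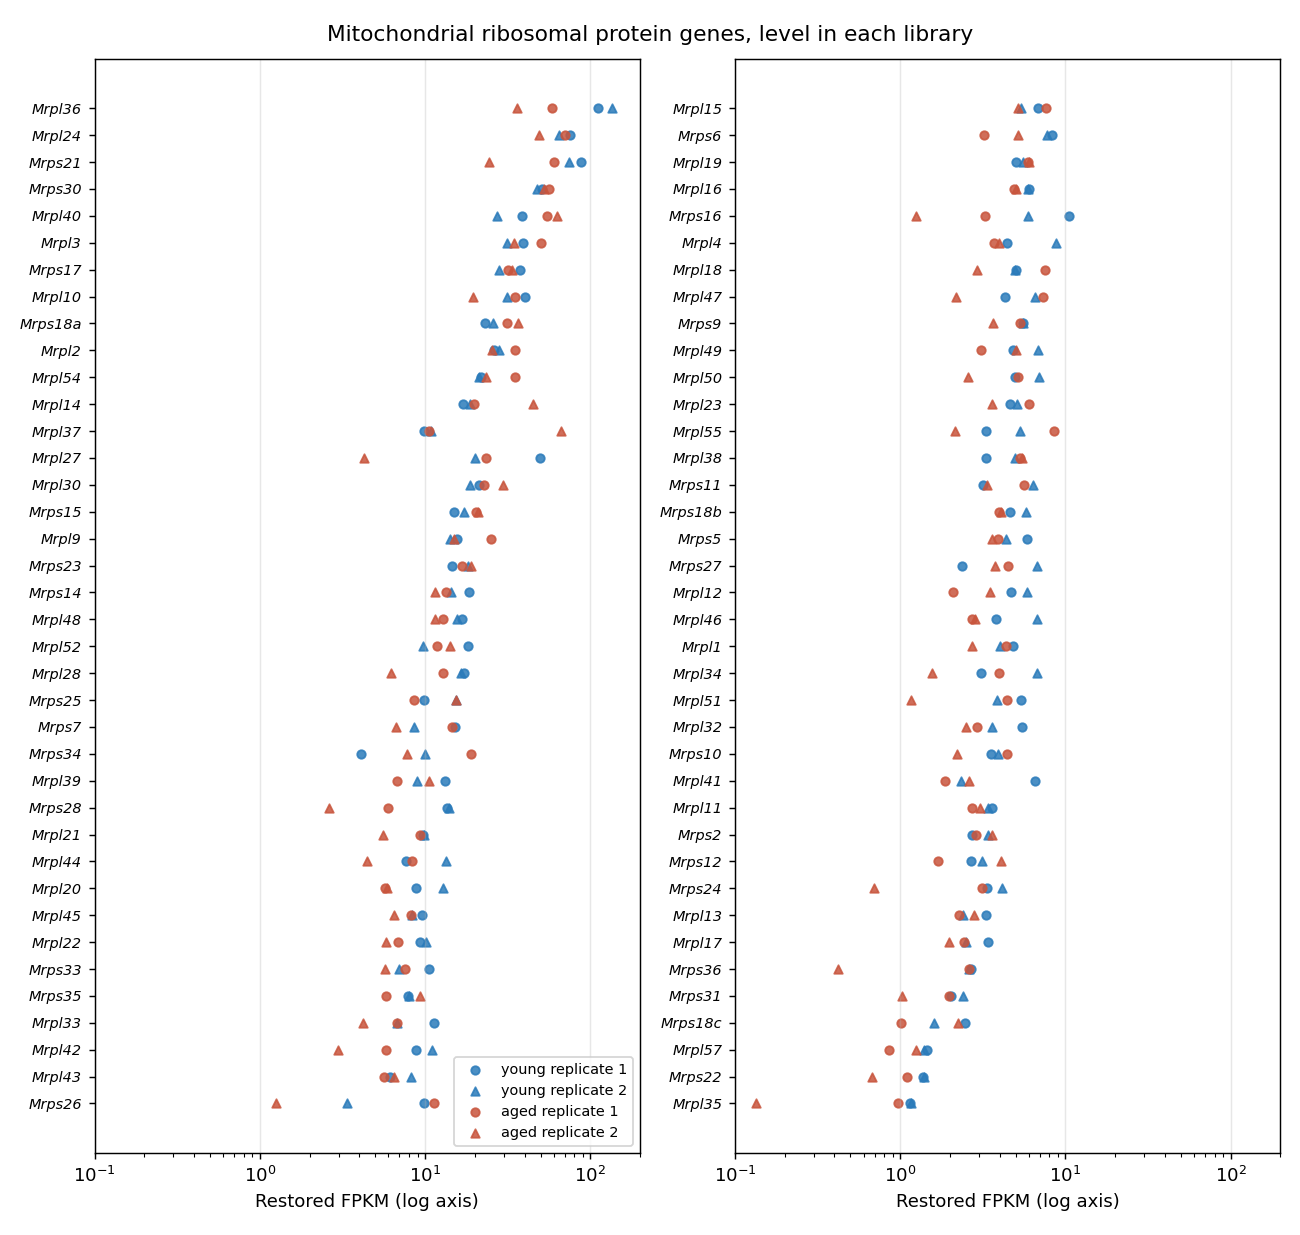
Restored FPKM (log axis) of the 76 detected genes in each of the 4 libraries, ordered by mean level from the top left. Young libraries are blue and aged libraries red, with circles for replicate 1 and triangles for replicate 2. Mrpl36 stands at the top, from 36.0 to 135 FPKM, and in many rows the red triangle of aged replicate 2 lies furthest left.

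Mrpl53, a protein near the stalk of the large subunit, was listed at 0 in all 4 libraries. Of its exon bases, 88.0% overlap the annotated gene Gm42688 on the same strand, and how the authors' counting treated shared bases was not tested. Mrpl35, also of the large subunit, had 1.15 and 1.16 FPKM in young, against 0.974 and 0.135 FPKM in aged libraries, from 49, 46, 31 and 5 reads. Its mean was below the minimum of 1 FPKM for testing, so 75 members were tested.

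The comparison of the ages asks whether macrophages of the injured nerve carry different amounts of these transcripts in young and aged animals. Differences were taken as aged minus young in log2(FPKM + 1), and on this scale the change of a low gene is understated. No member passed limma's test at an adjusted p of 0.05 over all 11656 genes tested, where the share of all genes that passed was 0.0%. The smallest adjusted p of a member was 0.74. At an unadjusted p under 0.05 stood 8 members, 7 lower and 1 higher in aged libraries, which is 10.7% of the family beside 6.63% of all genes. Of all genes, 4.87% stood lower and 1.76% higher at that level. With 2 libraries against 2, an exact permutation test of a single gene cannot give a two-sided p below 0.333.

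Most members had lower values in the aged libraries. Of the 75 tested, 55 had the lower mean in aged cells (73.3%, beside 59.5% of all genes tested) and 20 a higher one. The median difference of the family was -0.27 (quartiles -0.58 and 0.01), beside -0.09 for all genes tested. The aged libraries both lay below the young ones in 29 members (38.7%, beside 26.2% of all genes). For Mrpl33 and Mrps36 among them, the margin was too small to show in the values given below. The aged libraries both lay above the young ones in 9 members (12%, beside 11.8% of all genes). These counts moved with the scaling, to 19 lower with median ratio scaling, 17 lower with quantile scaling and 1 higher with the values as deposited. The shares of all genes at those scalings are not given here, so the moved counts cannot be set beside 26.2% and 11.8%. For 53 members (70.7%) the wider gap between libraries of the same age exceeded the difference between the ages, as it did for 74.3% of all genes. The other 22 had a difference larger than both gaps, 17 of them lower and 5 higher in aged cells. The shares of all genes by direction are not given here, so this split is not read as a result about the family. In bulk samples, fewer cells of a type and less RNA per cell cannot be told apart.

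The offset of the family was uneven across the libraries. Taken against each gene's mean over the 4 libraries, the median member lay at 0.13 in young replicate 1, 0.09 in young replicate 2, 0.01 in aged replicate 1 and -0.26 in aged replicate 2. The same medians over all genes tested were -0.05, 0.13, -0.05 and -0.08. Aged replicate 2 was the lowest of the 4 libraries for 38 of 75 members (50.7%, beside 35.4% of all genes). The summed level of the family was 1081 and 1019 FPKM in young, against 988 and 852 FPKM in aged libraries, and without Mrpl36 it was 970 and 884 FPKM in young, against 930 and 816 FPKM in aged libraries, so that aged replicate 1 then lay between the young ones.

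Aged replicate 2 against young replicate 1 gave a median of -0.45 over members, and against young replicate 2 a median of -0.39. Aged replicate 1 gave -0.17 and -0.10 against the same libraries. Relative to the median of all genes, the family stood at -0.18 with all 4 libraries. This was -0.07 without aged replicate 2, -0.04 without young replicate 1, -0.33 without aged replicate 1 and -0.28 without young replicate 2. The distance from other genes thus kept its sign but changed its size with the library left out. The macrophage markers summed to 8746 FPKM in aged replicate 2 and to 11223 to 13626 FPKM in the other 3 libraries. Monocyte, fibroblast and Schwann cell markers summed to 505, 50.7 and 30.1 FPKM in aged replicate 2, each within the range of the other libraries. Pericyte and smooth muscle markers (17.7 FPKM) and T cell markers (1.68 FPKM) were highest there. The part of cell composition in the family's values was not tested.

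**Figure D2:**
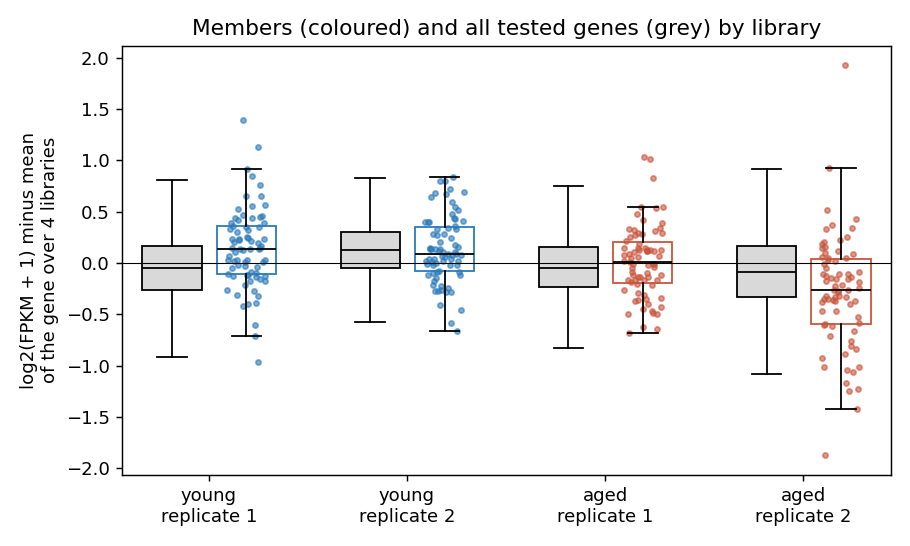
Log2(FPKM + 1) of each gene minus its mean over the 4 libraries, for the 75 members tested (coloured boxes and points) and all 11656 genes tested (grey boxes). Boxes span the quartiles with the median as a line, and whiskers reach 1.5 times the box. The medians of the members are 0.13, 0.09, 0.01 and -0.26 from left to right, with aged replicate 2 lowest.

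The large and small subunits had similar medians. The 48 tested genes of the large subunit had a median difference of -0.27, with 34 lower and 14 higher in aged cells. The 26 genes of the small subunit had a median of -0.26, with 20 lower and 6 higher. The aged pair lay below the young pair in 17 genes of the large subunit (35.4%) and 11 of the small subunit (42.3%), beside 26.2% of all genes. They lay above in 8 genes of the large subunit (16.7%) and in 1 of the small subunit (3.85%), Mrps15, beside 11.8% of all genes. The difference between the subunits was not tested.

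**Figure D3:**
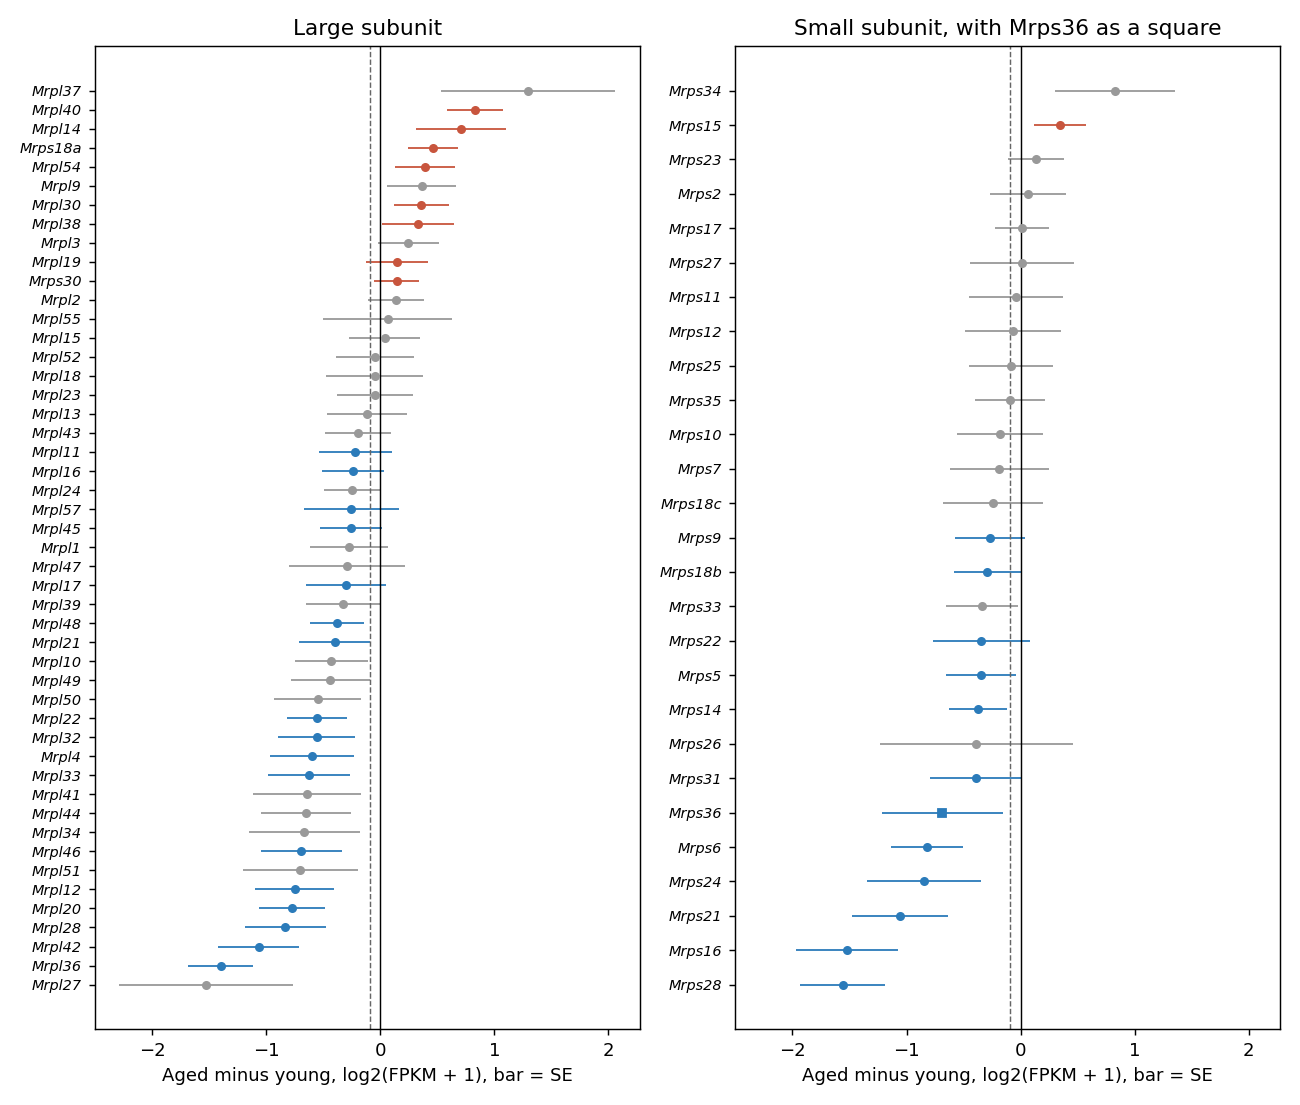
Difference of aged minus young in log2(FPKM + 1) for each tested gene, with its SE, for the large subunit (left) and the small subunit with Mrps36 as a square (right). Blue marks genes with both aged libraries below both young ones, red those with both above and grey those that overlap; the dashed line is the median of all genes, -0.09. Values run from -1.56 for Mrps28 to 1.30 for Mrpl37, and most points lie left of 0.

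In the small subunit, Mrps28 had the lowest difference of the family. Mrps28 (chromosome 3, 8802146 to 8923918, GRCm38) was 13.6 and 14.0 FPKM in young, against 5.95 and 2.64 FPKM in aged libraries, a difference of -1.56 (SE 0.37). The young libraries agreed closely and both aged libraries lay below them, on 113 and 109 against 37 and 19 reads. Mrps16, a protein of bacterial ancestry whose loss in people causes a combined respiratory chain deficiency, was 10.5 and 5.91 FPKM in young, against 3.28 and 1.24 FPKM in aged libraries (chromosome 14, 20389304 to 20393634). Its difference was -1.52 (SE 0.45), resting on 16 and 7 reads in the aged libraries.

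Mrps21, the most abundant messenger of the small subunit (chromosome 3, 95862634 to 95871519), was 88.4 and 74.5 FPKM in young, against 60.6 and 24.4 FPKM in aged libraries. The difference was -1.06 (SE 0.42), and the gap of 1.28 within the aged pair was wider than it. Without aged replicate 2 the difference of Mrps21 was -0.42, and without aged replicate 1 it was -1.69. Mrps6 was 8.33 and 7.72 FPKM in young, against 3.22 and 5.17 FPKM in aged libraries, a difference of -0.82 (SE 0.31) that exceeded the gaps of 0.10 and 0.55 within an age. Mrps15, which binds ribosomal RNA early in assembly in bacteria, ran the other way at 14.9 and 17.2 FPKM in young, against 20.2 and 21.0 FPKM in aged libraries (0.35, SE 0.23).

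In the large subunit, Mrpl36 (chromosome 13, 73328513 to 73332178) had the smallest p of the family. Its mean was 123 ± 16.7 FPKM in young libraries against 47.1 ± 15.8 FPKM in aged ones (SD, n = 2), a level 2.61-fold higher in young. The difference of -1.40 (SE 0.28) exceeded the gaps of 0.28 within the young and 0.68 within the aged pair, on 1152 and 1309 against 453 and 324 reads. It did not pass over all genes (limma, adjusted p 0.74), and over the 12 alternatives its adjusted p ranged from 0.142 to 0.96.

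Mrpl42 was 8.87 and 11.0 FPKM in young, against 5.83 and 2.96 FPKM in aged libraries (-1.06, SE 0.36). Mrpl28 was 17.1 and 16.6 FPKM in young, against 12.9 and 6.24 FPKM in aged libraries (-0.83, SE 0.35). In both, aged replicate 2 was the lowest library. Without it the difference was -0.67 for Mrpl42 and -0.36 for Mrpl28, and without aged replicate 1 that of Mrpl28 was -1.30. Mrpl20, a protein that binds the large ribosomal RNA, was 8.77 and 12.9 FPKM in young, against 5.76 and 5.87 FPKM in aged libraries (-0.77, SE 0.29). Here the aged libraries were alike and the young ones apart.

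Parts of the large subunit with a known role were read as groups. The stalk recruits translation factors to the ribosome, and 4 of its 5 listed genes were tested, with a median of -0.32. Of these, Mrpl12, the stalk protein that also binds the mitochondrial RNA polymerase, was 4.68 and 5.87 FPKM in young, against 2.08 and 3.48 FPKM in aged libraries (-0.75, SE 0.35). Mrpl54 differed from it in direction, at 21.9 and 21.2 FPKM in young, against 35.0 and 23.4 FPKM in aged libraries (0.39, SE 0.27). The stalk genes thus did not share a direction. Without aged replicate 1 the differences were -0.48 for Mrpl12 and 0.11 for Mrpl54, and without aged replicate 2 that of Mrpl54 was 0.67.

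All 5 genes around the exit tunnel had lower means in aged cells (median -0.26). Both aged libraries lay below both young ones in 2 of them (40.0%, beside 26.2% of all genes), Mrpl22 and Mrpl45. Aged replicate 2 was below each young library in all 5. Aged replicate 1 was below young replicate 1 in 3 and below young replicate 2 in 2, so the shared direction rested on aged replicate 2. Mrpl22 was 9.35 and 10.1 FPKM in young, against 6.86 and 5.78 FPKM in aged libraries (-0.55, SE 0.26). Of its 50-base stretches, 22.4% also occur in the pseudogene Gm6997, so its values are uncertain in part. The 8 genes of the central protuberance, which contacts the transfer RNAs and the small subunit, had a median of -0.04 and lay on both sides.

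In the central protuberance, Mrpl40 (chromosome 16, 18872018 to 18876862) was 38.4 and 27.1 FPKM in young, against 54.4 and 62.5 FPKM in aged libraries. Its difference of 0.83 (SE 0.25) exceeded the gaps of 0.49 within the young and 0.20 within the aged pair, and it was the 1 member at an unadjusted p under 0.05 with higher aged values. Mrpl38 of the same structure was 3.30 and 4.95 FPKM in young, against 5.27 and 5.47 FPKM in aged libraries (0.33, SE 0.31). Its difference was 0.10 without young replicate 1 and 0.57 without young replicate 2.

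Mrpl27, which in bacteria reaches towards the site where peptide bonds form, was 49.4 and 20.1 FPKM in young, against 23.4 and 4.25 FPKM in aged libraries. Its difference of -1.53 had an SE of 0.76, and the ages overlapped. Leaving out 1 library in turn gave -2.63 without aged replicate 1, -0.42 without aged replicate 2 and -0.90 without young replicate 1. It shares 24.4% of its 50-base stretches with other genes, mainly Gm6304. Mrpl55 also varied more within the aged pair (8.47 and 2.14 FPKM) than between the ages, with 3.30 and 5.33 FPKM in young libraries.

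The members with both aged libraries above both young libraries included the 2 large subunit genes named Mrps. Mrps18a was 22.9 and 25.9 FPKM in young, against 31.4 and 36.5 FPKM in aged libraries, a difference of 0.46 (SE 0.22). Mrps30 was 50.7 and 47.4 FPKM in young, against 56.1 and 52.5 FPKM in aged libraries, and its difference of 0.14 (SE 0.20) was the smallest of the 9. Mrps30 was also the steadiest of the 6 abundant genes named above, with gaps of 0.10 and 0.09 within an age.

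Mrpl14, which holds the assembly factor MALSU1 on the large subunit before the subunits join, was 17.0 and 18.7 FPKM in young, against 19.7 and 44.8 FPKM in aged libraries (0.71, SE 0.39). Its height rested on aged replicate 2, without which the difference was 0.14, and it was 1.28 without aged replicate 1. Mrpl30 was 21.3 and 18.8 FPKM in young, against 22.7 and 29.7 FPKM in aged libraries (0.36, SE 0.24), with 0.17 without aged replicate 2 and 0.55 without aged replicate 1. Mrpl19 was 5.05 and 5.57 FPKM in young, against 5.90 and 6.05 FPKM in aged libraries (0.15, SE 0.27), with 36.0% of its exon bases overlapping Gcfc2 on the opposite strand. For Mrpl19, Mrpl30 and Mrps15 the sign turned with the values as deposited, to a lowest value of -0.20, -0.26 and -0.04.

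Single libraries set the values of some members. Mrpl37 was 9.89, 10.9 and 10.6 FPKM in the young libraries and aged replicate 1, and 66.6 FPKM in aged replicate 2, on 995 reads there. Its difference was 1.30 (SE 0.76) with all libraries, 0.02 without aged replicate 2 and 2.57 without aged replicate 1. Mrps26 was 9.86 and 3.38 FPKM in young, against 11.3 and 1.25 FPKM in aged libraries, so the libraries within each age stood further apart than the ages. The abundant Mrpl3, which lies near the catalytic centre in bacteria, was 38.9 and 31.5 FPKM in young, against 50.4 and 34.4 FPKM in aged libraries (0.24, SE 0.27), and the ages overlapped. Over the family, the median gap was 0.28 between the young libraries and 0.54 between the aged ones, beside 0.31 and 0.35 over all genes.

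Another 19 members had both aged libraries below both young ones, with differences from -0.85 to -0.22. They were Mrpl4, Mrpl11, Mrpl16, Mrpl17, Mrpl21, Mrpl32, Mrpl33, Mrpl45, Mrpl46, Mrpl48, Mrpl57, Mrps5, Mrps9, Mrps14, Mrps18b, Mrps22, Mrps24, Mrps31 and Mrps36. Young replicate 2 and aged replicate 1 both read 6.74 FPKM for Mrpl33 and 2.59 FPKM for Mrps36, so these genes counted as lower by a margin beyond the digits given. Mrps36 also had only 3 reads in aged replicate 2. The remaining 31 members overlapped between the ages, 23 with a lower and 8 with a higher mean in aged cells, from -0.70 to 0.82. At the upper end, Mrps34 (0.82, SE 0.53) was 4.09 and 9.94 FPKM in young, against 19.0 and 7.75 FPKM in aged libraries. Of its exon bases, 63.4% overlap Mapk8ip3 on the opposite strand. Leaving out the 14 tested members with at least 20% overlap with 1 other gene or at least 10% shared stretches gave a median of -0.27 over 61 members, the same as with them.

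Mrpl46 and Mrps11 stand head to head on chromosome 7, on opposite strands, and their gene spans, introns included, have 413 bases in common. Of the exon bases, 12.2% of Mrpl46 and 8.0% of Mrps11 overlap the other gene. Mrpl46, of the central protuberance, was 3.81 and 6.68 FPKM in young, against 2.71 and 2.82 FPKM in aged libraries (-0.69, SE 0.36). Mrps11, of the small subunit, was 3.15 and 6.38 FPKM in young, against 5.64 and 3.34 FPKM in aged libraries (-0.04, SE 0.41). In the young pair both genes were higher in replicate 2, while in the aged pair they were not alike. The genes overlap, so without strand some of their reads cannot be told apart.

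The members are short genes, and the members furthest below 0 were among the shortest. The length behind the FPKM, recovered from the values, had a median of 1075 bases for the members tested and 3034 bases for the 11478 tested genes with a recovered length. Of the members, 36.0% were under 1000 bases, beside 10.6% of all genes. The 27 members under 1000 bases had a median difference of -0.39, with 23 lower in aged cells, and the 48 longer ones a median of -0.24, with 32 lower. All 7 members that stood lower at an unadjusted p under 0.05 were under 1000 bases (25.9% of 27), where 11.8% of all tested genes of that length did so. Over all tested genes, the median was -0.19 under 1000 bases and -0.09 above. Across the 75 members, Spearman's rho of length with difference was 0.22, as a description of genes that share the same libraries. Length thus moved with the result, and its part in it was not tested.

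**Figure D4:**
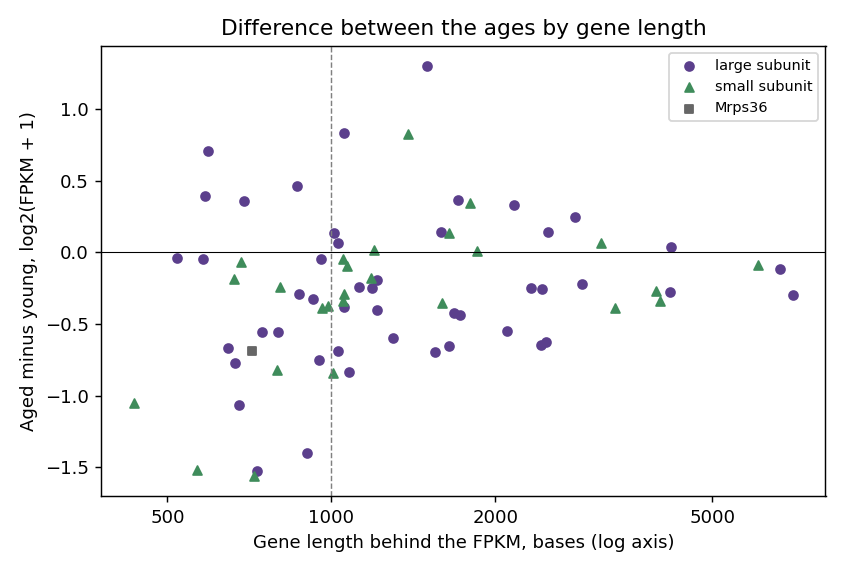
Difference of aged minus young in log2(FPKM + 1) against the gene length behind the FPKM (bases, log axis) for the 75 tested members, by subunit. The dashed line marks 1000 bases. The points below -1 lie left of the line, with medians of -0.39 for the 27 shorter and -0.24 for the 48 longer members.

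Members with at least 1 of the promoter motifs shown above had a median difference of -0.31 (40 tested, 32 lower in aged cells). The 26 tested members with a window and none of the 3 had a median of -0.26, with 19 lower. Members with NRF1, ETS and YY1 letters had medians of -0.30, -0.32 and -0.19 (13, 24 and 11 genes). The groups share members, and the differences between them were not tested.

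Other genes of mitochondrial translation were read as 5 lists, and none of their genes passed over all genes tested. Of 6 ribosomal proteins with other names, 4 had a lower mean in aged cells (median -0.22). Ict1, a peptide release enzyme built into the large subunit, was 51.8 and 28.5 FPKM in young, against 87.3 and 23.3 FPKM in aged libraries. Chchd1 of the small subunit was 48.7 and 36.3 FPKM in young, against 26.7 and 24.5 FPKM in aged libraries (-0.70, SE 0.24), with the ages apart. The 25 assembly genes had a median of -0.04, with 14 lower and 11 higher in aged cells. Of the most abundant, Rbfa, which matures the small subunit, was 20.3 and 34.8 FPKM in young, against 44.7 and 21.6 FPKM in aged libraries. The helicase gene Ddx28 was 18.4 and 15.7 FPKM in young, against 20.8 and 7.39 FPKM in aged libraries. Both overlapped between the ages.

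The 13 translation factor genes had a median of -0.16 (10 lower, 3 higher). Gfm1, the elongation factor that moves the ribosome along, was 23.2 and 24.6 FPKM in young, against 19.0 and 23.9 FPKM in aged libraries. Oxa1l, which inserts new chains into the inner membrane, was 16.3 FPKM in both young libraries and 19.3 and 9.89 FPKM in aged ones. The ages overlapped in both genes. The 16 genes of mitochondrial transcription and RNA handling had a median of -0.20 (12 lower, 4 higher). In this list Ptcd1 was 62.6 and 52.3 FPKM in young, against 73.8 and 60.5 FPKM in aged libraries, and Slirp, a partner of LRPPRC in keeping mitochondrial messengers stable, was 28.7 and 17.7 FPKM in young, against 20.1 and 24.9 FPKM in aged libraries. Neither gene separated the ages.

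Of 9 regulators of nuclear genes for mitochondria, 8 were tested, with a median of 0.12 (3 lower, 5 higher). Yy1 was 60.8 and 58.4 FPKM in young, against 44.8 and 48.6 FPKM in aged libraries (-0.35, SE 0.20), with both aged libraries lower. Gabpa, the DNA-binding subunit of GABP, was 20.7 and 22 FPKM in young, against 19.9 and 27.3 FPKM in aged libraries, and the ages overlapped. Ppargc1a, a coactivator of mitochondrial genes, was at most 0.146 FPKM in every library.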

How the data were processed

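The study deposited 1 table of FPKM for 24028 mouse genes in 4 libraries, calculated by the authors. Per the labels' protocols, RNA of sorted cells was copied from oligo-dT primers and went through multiple displacement amplification, which can copy transcripts unevenly. BWA 0.7.12, bcl2fastq, DESeq2 and the build mm10 are listed per the submitters' processing notes, with no role. The counting program, the annotation and strand use were not given in the sources used here. Columns were matched to samples by sample number, with 0 left unmatched.

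The deposited FPKM had been divided by read totals that cycle over 12 values from gene to gene. This was undone by putting the total of its own library in place of the one used, with the totals supplied with the rule for the genes. Of 4373 low genes above 0 in all libraries, 100.0% then stood in whole-read ratios and 0.0% as deposited. Reads and gene lengths were taken as the smallest whole numbers that fit, so a read count may be too low by a common factor. In the deposited scaling, aged minus young is shifted by -0.64 to 0.13 (log2) depending on the gene.

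The test was limma 3.58.1 in R 4.3.3 on log2(FPKM + 1), with empirical Bayes and intensity trend, two-sided, with Benjamini-Hochberg adjustment over the 11656 genes whose mean was 1 FPKM or more. It was checked on simulated data in which all genes had the same spread, unlike the real genes, so the check does not show how the test performs here. Coordinates, exon overlaps and shared 50-base stretches are from GENCODE M21 (GRCm38) and promoters from RefSeq. Named were every member past the threshold; the 10 with the smallest p in each direction whose ages did not overlap, of which 9 existed upwards; the 6 most abundant; the 4 with the widest gap within an age; those below the minimum; and the 2 most abundant of each list or any that passed. Mrps34, Mrps36, Mrpl45, Mrpl46, Mrps11, Ppargc1a and the 19 members listed together were named after their values were seen. The members and lists were chosen with earlier results of these data known. Replicate numbers were not treated as pairs in the main test.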

Additional observations from a re-analysis of the deposited data

How the results depend on the processing

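None of the 12 alternatives called a member (limma, Benjamini-Hochberg), and 2 to 14 stood at an unadjusted p under 0.05. The median of the family kept its sign throughout. With the values as deposited it was -0.46 beside -0.31 for all genes, a single member lay above without overlap, and the lists of other ribosomal proteins, assembly, transcription and regulators had medians of -0.42, -0.27, -0.42 and -0.12. The median of all genes moved from -0.09 to 0.02 with median ratio scaling and to -0.02 with quantile scaling. Members lower without overlap numbered 19 with the median ratio, and 17 with quantile scaling and with a mean of at least 5 FPKM, where 47 members were tested. Without 1 library in turn, the family's median ranged from -0.45 to -0.16, members lower without overlap from 36 to 47 and higher from 13 to 20, since 2 libraries against 1 overlap less. The list medians then ranged from -0.54 to -0.12 for other ribosomal proteins, -0.29 to 0.13 for assembly, -0.23 to 0.07 for translation factors and -0.10 to 0.23 for regulators. With the replicate number as a block, 0 members were called, 11 stood at an unadjusted p under 0.05 and 1 gene of 11656 was called. For the counts of members in the alternatives, without overlap or at an unadjusted p under 0.05, shares of all genes are not given here. Those counts are therefore not read as a result about the family. Replicate differences of the young and aged pairs were uncorrelated across genes (r = -0.00038). A single correlation across genes cannot show whether libraries of the same number shared a batch, and this was not tested. Of 25 tested members described by rule, 18 kept their sign in every alternative that gave a value (11 for Mrpl12 and Mrpl38, which lie below a mean of 5 FPKM, and 12 for the others); Mrpl3, Mrpl19, Mrpl24, Mrpl30, Mrpl55, Mrps15 and Mrps26 did not. The lowest members rest on few reads, down to 3 in aged replicate 2.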
